A study of Mus musculus with 48 samples.

Results

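The 10 pericyte and smooth muscle genes described here are Pdgfrb, Rgs5, Acta2, Tagln, Myh11, Cspg4, Vtn, Kcnj8, Abcc9 and Des. They were chosen by name as marker genes of the mural cells of brain vessels, out of 46983 genes in the count tables, and all 10 passed the minimum of more than 10 reads summed over libraries, which left 19970 genes to test. RNA was measured in 48 brain libraries of 11 groups from 3-month-old male C57Black/6 mice. In the MCAO groups the middle cerebral artery was closed for good by coagulation and cut, which causes a cortical infarct, and sham mice had the same surgery without coagulation. MCAO and sham tissue was collected at 3 h, 12 h, 24 h, day 3 and day 7, and control tissue came from intact cortex. Each sham group and the control held 4 libraries, MCAO at 24 h held 4, and MCAO at each other time held 5. The sources differ on the tissue taken, which is the injured cortical region with affected and unaffected tissue in one place and nearly the whole hemisphere of the injured side in another, so the share of infarct in each library is unknown.

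Pericytes wrap the capillaries of the brain and share a basement membrane with the endothelium, while smooth muscle cells form contractile rings around arteries and arterioles. Endothelial platelet-derived growth factor B recruits both through the receptor encoded by Pdgfrb, and pericytes help to maintain the blood-brain barrier. After a brain lesion, cells that carry this receptor, fibroblasts among them, take part in forming the fibrotic scar. In bulk tissue, fewer cells of a type and less RNA per cell cannot be told apart.

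Rgs5, which encodes a regulator of G protein signalling enriched in pericytes, had the most counts of the 10 genes (6888 over all libraries), and Des, which encodes the muscle-type intermediate filament desmin, had the fewest (163). The 250 bases before their starts are shown for these genes at either end of the range, from RefSeq on GRCm38.p6. Both lie on chromosome 1, on the + strand, at chr1:169655251-169655500 and chr1:75360042-75360291.
Rgs5: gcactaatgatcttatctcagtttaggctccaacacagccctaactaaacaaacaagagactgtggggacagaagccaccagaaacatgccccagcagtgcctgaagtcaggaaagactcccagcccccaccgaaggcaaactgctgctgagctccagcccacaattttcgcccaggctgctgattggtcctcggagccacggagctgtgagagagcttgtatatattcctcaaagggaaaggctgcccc
Des: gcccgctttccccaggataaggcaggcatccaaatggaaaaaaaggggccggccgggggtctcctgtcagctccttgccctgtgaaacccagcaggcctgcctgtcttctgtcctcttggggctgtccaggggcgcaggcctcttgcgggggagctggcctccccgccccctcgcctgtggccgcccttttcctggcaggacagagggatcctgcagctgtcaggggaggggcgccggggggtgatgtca
Capitals would mark an exact CArG box, the 10-base element through which serum response factor acts on contractile genes. Neither window held an exact match, nor did the windows of the other 5 members that had one (Acta2, Cspg4, Vtn, Kcnj8 and Abcc9). Near matches were not counted. The Acta2 window holds ccctatatgg and ccttgtttgg, which each differ from the exact pattern by a single base. Tagln, Myh11 and Pdgfrb had no window to search. The element was found in 482 of 32851 such windows (1.47%), and its pattern reads the same on both strands. The letters GTGGGAA, a core bound by the Notch partner RBPJ, were searched on both strands and were in none of the 7 windows and in 5.42% of all windows.

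The libraries held 1522668 to 2826735 counts on genes (median 1935855.5), and levels are given as CPM (counts scaled to a common library size) after trimmed mean of M-values scaling. Because reads were made from the 3′ ends of transcripts, 1 transcript gives about 1 count whatever its length. Brain markers were present throughout, and 3 of 5 hepatocyte markers (Alb, Serpina1a and Fgb) had too few counts to test. A single control library carried choroid plexus transcripts, at a summed 502.7 CPM against a control median of 5.344, led by Ttr, which encodes transthyretin. Kcnj8, at 281 counts in all, was at 0 in 1 library, and Des was at 0 in 5. The labels give replicates by letter only, and the study counts its bulk replicates as mice, so p-values measure the spread between these samples.

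**Figure D1:**
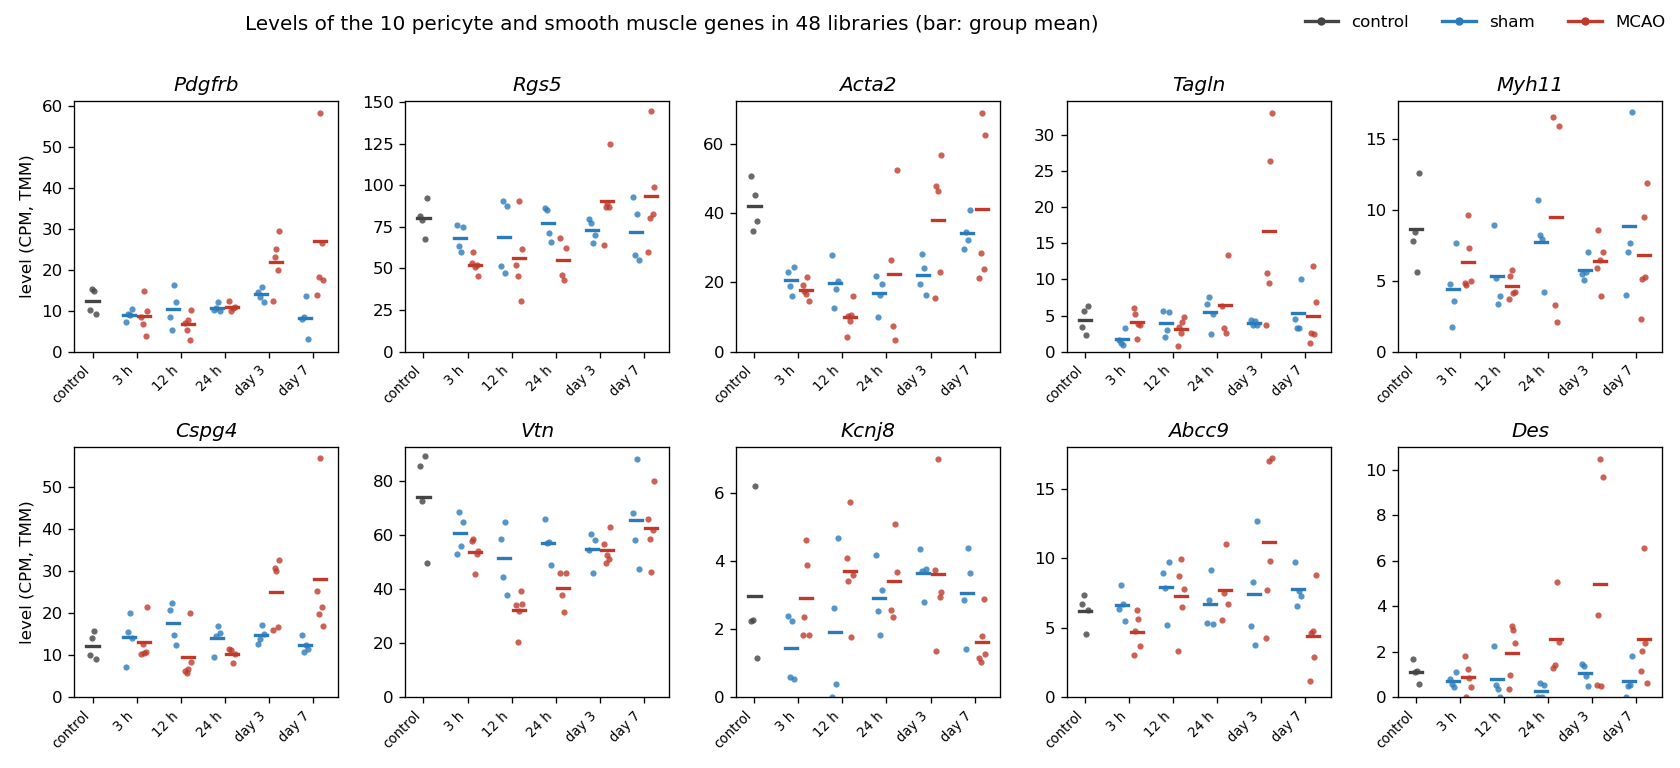
Level of each of the 10 genes (CPM, vertical axes from 0) in the control and in sham and MCAO groups at 5 times; each point is a library and each bar a group mean. Pdgfrb in MCAO at day 7 runs from 13.9 to 58.3 CPM above the shams at 3.19 to 13.6. Acta2 lies at 34.9 to 50.8 CPM in the controls and 10.1 to 28.2 in the shams from 3 h to day 3. In sham at day 7 it lies at 29.8 to 41.1 CPM, and this split of the shams was chosen after the levels were seen.

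By group mean, neighbouring groups in the order of levels differed by less than the larger of their SDs in 96 of 100 neighbouring pairs over the 10 genes. The 4 steps that exceeded it were Pdgfrb from sham at day 3 to MCAO at day 3, Acta2 from MCAO at 12 h to sham at 24 h, Vtn from MCAO at 12 h to MCAO at 24 h, and Abcc9 from MCAO at 3 h to control. MCAO at 12 h had the lowest mean of the 11 groups for Pdgfrb, Acta2, Cspg4 and Vtn. MCAO at day 7 had the highest mean for Pdgfrb, Rgs5 and Cspg4. There, replicate C held 58.3, 144.6 and 57.1 CPM, the highest MCAO values at that time. By median, MCAO at day 3 was above MCAO at day 7 in these genes. The medians were 23.05 against 18.3 CPM for Pdgfrb, 86.9 against 82.5 for Rgs5 and 29.96 against 21.6 for Cspg4.

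MCAO was then set against sham at each time, to separate occlusion from surgery. A gene was called when the Benjamini-Hochberg adjusted p of edgeR's quasi-likelihood test was under 0.01 over all genes and the absolute log2 fold change over 0.58. Among 10 members at 5 times, 2 values were called, Tagln at day 3 and Pdgfrb at day 7. None was called at 3 h, where 0.11% of all genes were called, at 12 h (0.411%) or at 24 h (0.0901%). At an unadjusted p under 0.05 there were 0, 3 and 3 members at these times, beside 8.45%, 14.6% and 8.8% of all genes, and DESeq2 called none at any of them. At day 3 it was 1 of 10 members beside 4.02% of all genes, and at day 7 it was 1 of 10 beside 3.5%. The median log2 fold change of the members was -0.06 at 3 h, -0.35 at 12 h, 0.20 at 24 h, 0.62 at day 3 and 0.09 at day 7, against medians of all genes between 0.0 and 0.056.

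**Figure D2:**
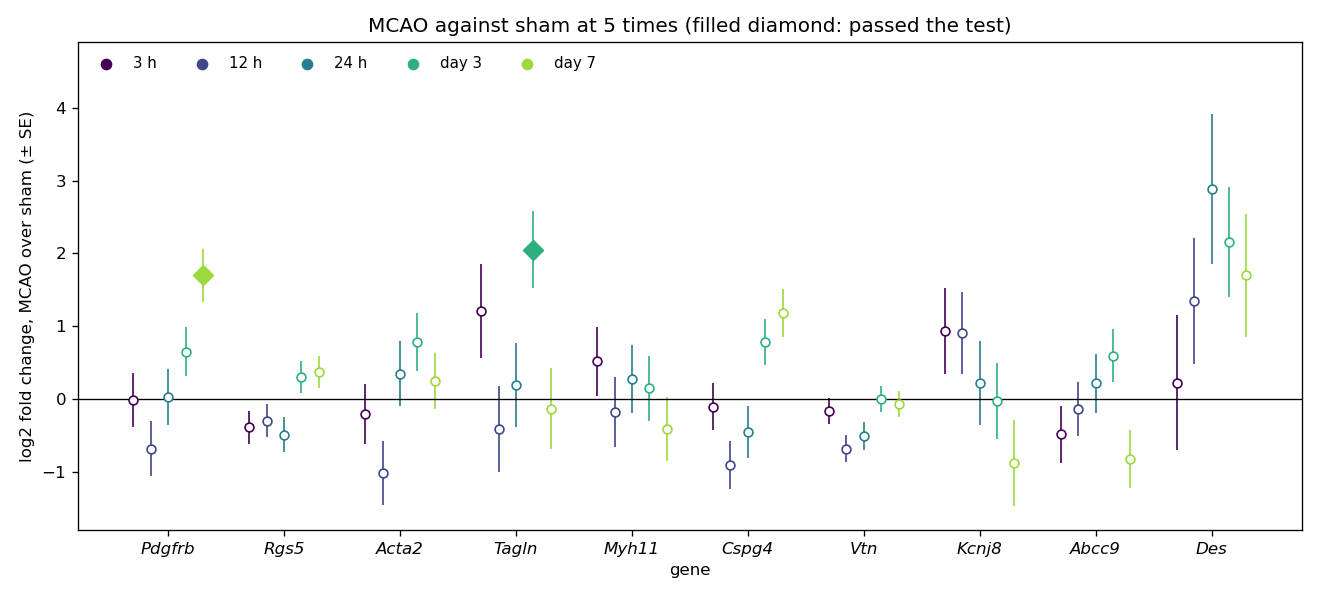
Log2 fold change of MCAO over sham with its SE for each of the 10 genes (horizontal axis) at 5 times (colours); filled diamonds passed edgeR's test and open circles did not. Tagln at day 3 (2.05) and Pdgfrb at day 7 (1.70) are the filled ones, and the wide bars of Des go with its few counts.

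Pdgfrb (chromosome 18, 61045150 to 61085061, + strand, GRCm38), the platelet-derived growth factor receptor of mural cells and of many fibroblasts, was higher in MCAO than in sham at day 7. The 5 MCAO libraries held 13.9, 18.3, 58.3, 26.4 and 17.5 CPM and the 4 shams 8.01, 8.40, 13.6 and 3.19 CPM. The groups did not overlap, and replicate C was far above the other MCAO libraries. The means were 26.9 ± 18.1 (SD, n = 5) and 8.31 ± 4.26 (SD, n = 4), the log2 fold change was 1.70 ± 0.36 (SE) and the edgeR adjusted p was 0.00164. Without MCAO replicate C the log2 fold change was 1.21 with an adjusted p of 0.026. Leaving out sham replicate D, the lowest sham, gave 1.40 with an adjusted p of 0.0216. Neither passed, and fitting only the compared groups gave 1.70 with an adjusted p of 0.0208. At earlier times the adjusted p did not pass. At day 3 the MCAO libraries held 12.3, 23.1, 25.0, 20.02 and 29.5 CPM against 14.5, 13.4, 15.9 and 12.2 in sham, with replicate A alone among the shams. Against the control, with libraries at 10.04, 15.2, 14.7 and 9.13 CPM, the day 7 log2 fold change was 1.13 (adjusted p = 0.0559), and 0.64 (adjusted p = 0.464) without MCAO replicate C.

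Cspg4 (chromosome 9, 56865033 to 56899870, + strand), which encodes the proteoglycan NG2 of pericytes and oligodendrocyte precursors, ran beside it. At day 7 MCAO held 25.4, 19.9, 57.1, 21.6 and 16.9 CPM and sham 14.9, 10.7, 12.5 and 11.4 CPM. No MCAO library was below a sham library. The log2 fold change was 1.18 ± 0.33 (SE), with an edgeR adjusted p of 0.0147 that missed the threshold, and it passed with DESeq2 (adjusted p = 0.00489) and with no filter on low counts (adjusted p = 0.00965). Without MCAO replicate C it was 0.76 (adjusted p = 0.153). Day 3 gave 0.78 (adjusted p = 0.122), and 12 h gave -0.91 (adjusted p = 0.169). The oligodendrocyte precursor markers summed to 259.4 to 455.0 CPM in MCAO at 12 h and 287.1 to 912.8 CPM in sham, and their part in that value was not tested. Cspg5 weighed most in these sums, with 37182 counts over all libraries beside 10776 for Olig1, the next of the list. Non-overlap of all MCAO and all sham libraries was met at day 7 by 2 of 10 members, Cspg4 and Pdgfrb, and by 10.5% of all genes.

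Markers of other cells moved at the same time. Of the 12 fibroblast and matrix genes, 7 were called higher at day 7 and none lower. The 7 were Col1a1, Col1a2, Col3a1, Dcn, Fn1, Sparc and Pdgfra, and the list median was 2.49. Col3a1, which encodes a fibrillar collagen, rose by a log2 fold change of 6.74 (SE 1.07, adjusted p = 4.57e-05), Col1a1 by 5.26 and Col1a2 by 4.46. Replicate C again stood apart, since Col3a1 gave 3.66 without it, Col1a1 gave 2.90 and Col1a2 gave 2.42. The summed level of the list was 866.6 to 7445 CPM in MCAO at day 7, the highest in replicate C, and 706.0 to 736.8 CPM in sham. Over all libraries, Thy1 had 38786 counts and Sparc 25397, beside 6875 for Col1a2, the next of the list. In sham at day 7, Col1a1, Col1a2, Col3a1 and Dcn had means of 12.75, 19.0, 2.63 and 23.5 CPM. Dcn, which encodes the proteoglycan decorin, rose by 2.43, and gave 1.44 (adjusted p = 0.0612) without replicate C. No gene of the list was at 0 in all libraries of either group. The 9 markers of oligodendrocyte precursors, cells that share NG2 with pericytes, summed to 694.3 to 1105 CPM in MCAO against 228.1 to 724.4 in sham. Cspg5 had the most counts of the 9 genes. Of the 9, 4 were called higher, Gpr17 (log2 fold change 1.99), Lhfpl3 (1.71), Pdgfra (1.36) and Vcan (1.07), and none lower. Vcan gave 0.71 (adjusted p = 0.0814) without replicate C. The leptomeningeal list ran from 63.5 to 514.0 CPM in MCAO and 78.0 to 119.9 in sham, again highest in replicate C. What part these cells had in the Pdgfrb and Cspg4 values was not tested. Pdgfra is on both the fibroblast and the precursor list.

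Tagln (chromosome 9, 45929619 to 45936058, - strand), which encodes transgelin, an actin-binding protein of smooth muscle, was higher in MCAO at day 3. The MCAO libraries held 3.74, 10.8, 9.49, 26.4 and 33.1 CPM and the shams 4.35, 3.69, 4.20 and 3.75 CPM. Of the 5, 4 were above all shams, and replicate A lay among them. The means were 16.7 ± 12.4 (SD, n = 5) and 4.0 ± 0.328 (SD, n = 4), and the log2 fold change was 2.05 ± 0.53 (SE) with an edgeR adjusted p of 0.00841. The call was lost without MCAO replicate D (1.83, adjusted p = 0.0292) or E (1.64, adjusted p = 0.0639), and without any of the 4 shams (2.01 to 2.09). Scaling to the spike-ins gave 1.77 (adjusted p = 0.022), and only the groups compared gave 2.05 (adjusted p = 0.0199). At day 7 the MCAO libraries held 1.15 to 11.9 CPM and the shams 3.27 to 10.04. The change between day 7 and day 3, a difference of differences, was -2.18 with an adjusted p of 0.157. Tagln overlaps Pcsk7 on the other strand, and the counting's use of strand is not given in the sources used here.

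The other contractile genes did not follow Tagln to a call. Acta2 (chromosome 19, 34241090 to 34255590, - strand), which encodes smooth muscle alpha-actin, held 15.5, 47.9, 46.4, 23.0 and 56.9 CPM in MCAO at day 3 against 19.6, 28.2, 24.3 and 16.4 in sham, so the groups overlapped. Myh11 (chromosome 16, 14194535 to 14291372, - strand), the smooth muscle myosin heavy chain, held 5.87, 8.59, 6.49, 3.91 and 7.05 CPM against 5.44, 5.08, 5.61 and 7.03. Their edgeR adjusted p was 0.235 for Acta2 and 0.897 for Myh11. At day 3 none of 10 members was non-overlapping, beside 7.14% of all genes. Des held 0.534, 3.62, 10.5, 0.488 and 9.70 CPM in MCAO and 1.45, 1.39, 0.934 and 0.469 in sham, with a log2 fold change of 2.15 and an adjusted p of 0.0682. MCAO replicates C and E were the high ones in Des, and E was the highest in Tagln and Acta2.

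Related lists moved in part on that day. Of 18 other pericyte genes, Mcam (log2 fold change 2.61, adjusted p = 0.00198) and Notch3 (1.16, adjusted p = 0.00953) were called higher and none lower. With spike-in scaling Notch3 gave 0.91 (adjusted p = 0.0768). The median over the list was 0.34. Mcam encodes an adhesion molecule of vessel walls and endothelium, and Notch3 is the Notch receptor of mural cells. Of 20 other contractile genes, Flna (1.79, adjusted p = 9.78e-05) and Cald1 (1.36, adjusted p = 0.00122) were called higher and none lower, with a median of 0.80. Flna encodes the actin crosslinker filamin A and Cald1 caldesmon, and many other cells use both. Of 17 genes of mural recruitment signalling, Tgfb1 (3.58), Eng (1.70) and Hbegf (1.35) rose at day 3, and Tgfbr2 rose at day 7 (2.56). At day 3 Tgfb1 held 0.534 to 40.98 CPM in MCAO and 0.467 to 2.31 in sham, so the groups overlapped. Hbegf overlapped too, at 21.9 to 112.3 against 21.2 to 34.1 CPM, and Eng did not, at 14.4 to 38.45 against 4.22 to 10.5 CPM. Pdgfb, the ligand of Pdgfrb, had a log2 fold change of 2.68 at day 7 with an edgeR adjusted p of 0.016, short of the threshold, and passed it with DESeq2 (adjusted p = 0.00739), with no filter on low counts (0.00153), with only the groups compared (0.0034) and with the replicate block (0.00721). Of 12 endothelial markers, Pecam1 (2.02), Cdh5 (1.99), Esam (1.28) and Egfl7 rose at day 3. Their summed level in MCAO was 432.4 to 1027 CPM against 435.4 to 512.0 CPM in sham, and replicate C and E held the 2 highest sums. The fibroblast list gave 5 of 12 higher at day 3, and its sum ran from 875.0 to 2892 CPM in MCAO against 630.1 to 745.6 CPM. The part of these cells in the Tagln value was not tested. At day 7 none of the 18 pericyte and 20 contractile genes passed as higher, and Rgs4, a regulator that cortical neurons also express strongly, fell (-1.22, adjusted p = 0.00404). Short of the threshold, and picked after their values were seen, were Tbx18 (2.06, adjusted p = 0.0308), Art3 (2.70, adjusted p = 0.0669), Anpep (2.07, adjusted p = 0.0768) and Cald1 (0.89, adjusted p = 0.0452). Without MCAO replicate C, Tbx18 gave 1.12, Art3 2.92, Anpep 0.24 and Cald1 0.45. Other genes of the 2 lists were lower at day 7 without passing. Among them were Cox4i2 (-1.17, edgeR adjusted p = 0.427), Higd1b (-0.865, 0.403) and Pln (-1.185, 0.353). The list medians at day 7 were 0.33 for the pericyte and 0.15 for the contractile genes. Among the brain markers at day 3, Snap25, a neuronal synaptic gene, fell by 0.67 on the log2 scale (adjusted p = 0.0043), and the microglial gene Cx3cr1 rose (1.77, adjusted p = 3.77e-05). Aqp4, the astrocyte water channel, rose at day 7 (1.47, adjusted p = 2.85e-05).

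**Figure D3:**
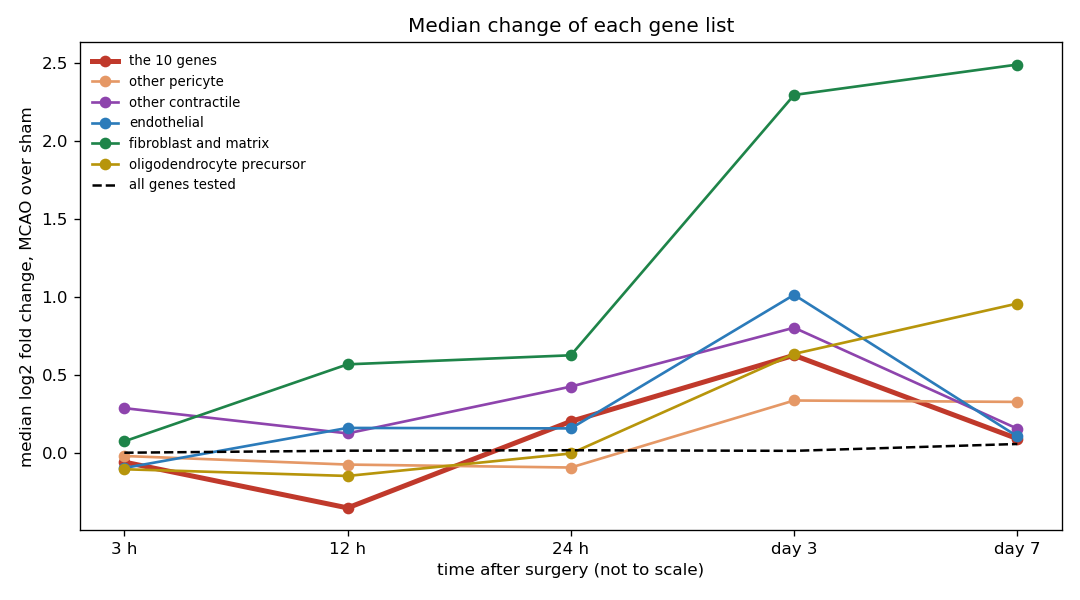
Median log2 fold change of MCAO over sham (vertical axis) for the 10 genes and 5 other gene lists at 5 times (horizontal axis, not to scale), with all genes tested as a dashed line. The 10 genes run from -0.35 at 12 h to 0.62 at day 3, and the fibroblast and matrix list reaches 2.49 at day 7.

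At 3 h, Rgs5 (chromosome 1, 169655501 to 169695813, + strand) was the member whose groups did not overlap. The MCAO libraries held 53.0, 59.5, 50.8, 52.1 and 45.6 CPM and the shams 75.9, 63.3, 59.6 and 74.7 CPM. All MCAO libraries were lower, by 52.2 ± 5.02 (SD, n = 5) against 68.4 ± 8.14 (SD, n = 4), and the edgeR adjusted p was 0.66. There, 1 of 10 members was non-overlapping, beside 3.58% of all genes, and none with spike-in scaling. At 12 h none was, beside 3.29%. Rgs5 at 24 h held 68.4, 46.3, 43.2 and 62.3 CPM against 86.1, 85.3, 71.3 and 66.1 in sham, a log2 fold change of -0.49 with an adjusted p of 0.551. Against the controls, at 67.7 to 92.5 CPM, it was -0.54 (adjusted p = 0.362). At day 3 and day 7 it was 64.1 to 124.7 and 60.0 to 144.6 CPM in MCAO, with the highest MCAO library above every sham at each time.

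Vtn (chromosome 11, 78499091 to 78502324, + strand), which encodes vitronectin and is a pericyte transcript in brain, was lowest in MCAO at 12 h and 24 h. At 12 h MCAO held 34.1, 20.4, 31.8, 39.4 and 34.5 CPM and sham 58.7, 44.3, 64.7 and 37.8. Only replicate D of MCAO exceeded the lowest sham. The log2 fold change was -0.68 ± 0.19 (SE) with an edgeR adjusted p of 0.0457. At that time 2 of 12 endothelial markers were called lower and none higher. They were the transporter gene Slco1a4 (-1.12, adjusted p = 0.00349) and Itm2a (-1.0, adjusted p = 0.00945). With only the groups compared, the adjusted p of Itm2a was 0.161. The leptomeningeal gene Aldh1a2 rose (2.27, adjusted p = 0.00593), and no pericyte or contractile gene of the lists was called. At 24 h MCAO held 45.9, 37.9, 31.4 and 45.8 CPM and sham 65.9, 56.9, 57.3 and 48.8 CPM, without overlap, and the log2 fold change of -0.51 had an adjusted p of 0.378. At 24 h, 2 of 10 members did not overlap, Vtn lower and Des higher, beside 5.83% of all genes. Against the control, whose libraries held 85.4, 72.5, 89.2 and 49.7 CPM, the 24 h log2 fold change was -0.89 ± 0.19 (SE) with an adjusted p of 0.0107, just short of the threshold. Without control replicate D, the lowest, it was -1.04 (adjusted p = 0.00342), and DESeq2 gave -0.88 (adjusted p = 0.000925). Against the same controls, the mean of the 5 sham groups was also lower, at -0.36 (edgeR adjusted p = 0.96). By day 3 and day 7 the MCAO libraries lay among the shams, at 49.7 to 63.0 and 46.4 to 80.2 CPM.

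Des (chromosome 1, 75360329 to 75368579, + strand) at 24 h had 22 counts in the MCAO libraries and 2 in the shams. The ratio was 8.83 with a 95% interval of 2.17 to 77.4, which covers counting error only, and the edgeR adjusted p was 0.313. The MCAO libraries held 1.27, 1.40, 5.08 and 2.44 CPM and the shams 0, 0.632, 0 and 0.524 CPM. Every MCAO library was above every sham, though by few counts. Sham at 24 h was the lowest of the 11 groups for Des. Against the control, MCAO at 24 h gave a log2 fold change of 1.145 with an edgeR adjusted p of 0.66. Des overlaps the antisense gene Gm15179, which had 30 counts in all, and without strand their reads cannot be told apart. Desmin is also made by skeletal muscle, and the 10 skeletal muscle markers summed to 92.8 CPM in replicate C, where Des was highest, against 23.8 to 25.1 CPM in the other MCAO libraries and 24.0 to 33.3 CPM in sham. What part this had in the Des value was not tested. No skeletal muscle marker was called at 24 h, and Acta1 fell at day 7 (log2 fold change -0.91, adjusted p = 0.00838).

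Within MCAO at 24 h, the contractile genes split the libraries. Acta2 held 26.3 CPM in replicate A and 52.6 in D, against 7.48 in B and 3.39 in C. Myh11 held 16.6 and 15.9 CPM in A and D and 3.27 and 2.12 in B and C, and Tagln held 6.37 and 13.4 against 3.27 and 2.54. The same libraries were high and low in each of these genes. The grouping of A and D against B and C was chosen after the levels were seen. Rgs5 was also higher in A and D, at 68.4 and 62.3 CPM, than in B and C, at 46.3 and 43.2 CPM. So was Vtn, at 45.9 and 45.8 CPM against 37.9 and 31.4 CPM. Pdgfrb ran only from 9.81 to 12.3 CPM. Cspg4, Kcnj8 and Des did not split in this way, and Abcc9 was lower in A and D. Summed levels of the 12 endothelial markers were also higher in A and D, at 483.1 and 550.0 CPM, than in B and C, at 421.1 and 450.8 CPM. Their part in the split was not tested.

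Over the 48 libraries, Pearson's r of deviations from the group means on the log2(CPM + 1) scale was 0.65 for Acta2 and Tagln, 0.65 for Acta2 and Myh11 and 0.48 for Tagln and Myh11. Those were the highest of 45 pairs, whose median was 0.17. For Rgs5, r was 0.42 with Pdgfrb, 0.42 with Tagln and 0.39 with Abcc9. Vtn had r between -0.19 and 0.20 with the other 9 genes. The points share their libraries, their depth and the sampling of vessels in the tissue piece, so these values are a description. By the same measure, among 11739 genes with at least 5 CPM on average, the 5 nearest Acta2 were Apod (0.70), Zbtb20 (0.68), Tagln (0.65), Myh11 (0.65) and Lrrk1 (0.64). The 5 nearest Rgs5 were Irak2 (0.77), Cerk (0.75), Ralb (0.74), Esyt1 (0.74) and Myl12a (0.73). None of either 5 stayed among the nearest when library values replaced deviations.

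**Figure D4:**
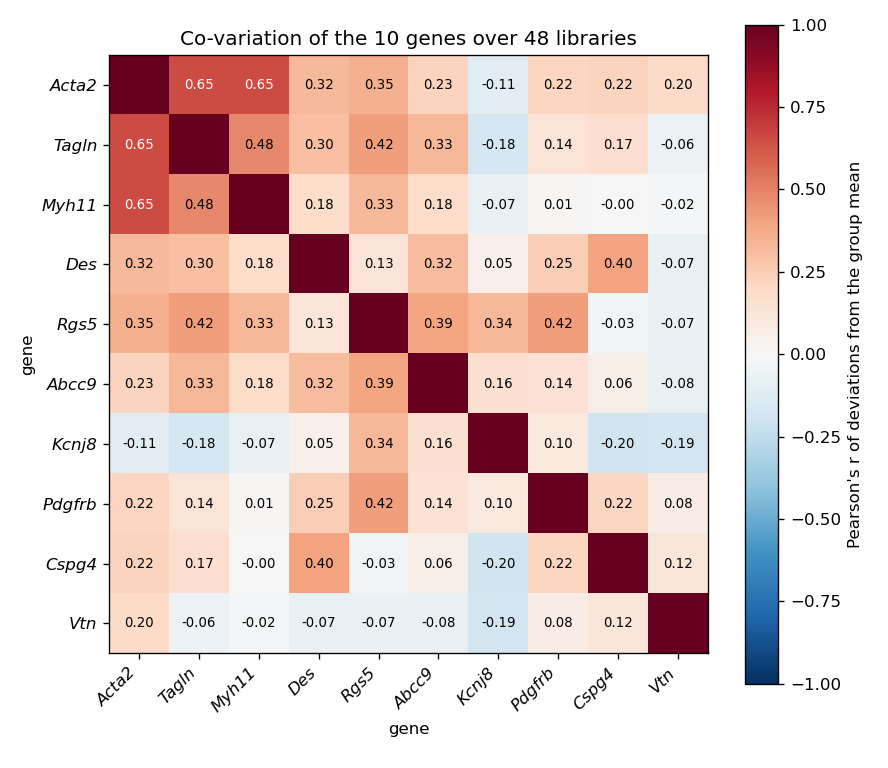
Pearson's r between the deviations of each pair of the 10 genes from their group means (both axes list the genes; colour and number give r) over 48 libraries. Acta2, Tagln and Myh11 form the darkest block, with r of 0.48 to 0.65.

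Kcnj8 and Abcc9 encode the pore and the sulfonylurea receptor of the ATP-sensitive potassium channel of mural cells, and lie beside each other on chromosome 6 (142564837 to 142571614 and 142587862 to 142702315, - strand). Kcnj8 stayed at 0 to 6.99 CPM in all 48 libraries and Abcc9 at 1.15 to 17.2 CPM, so changes of the size seen in Pdgfrb would be hard to see in Kcnj8. Abcc9 at day 7 held 1.15, 4.58, 4.76, 2.88 and 8.77 CPM in MCAO and 9.73, 6.53, 7.63 and 7.30 in sham. The log2 fold change was -0.82 with an edgeR adjusted p of 0.198. Abcc9 overlaps the antisense gene 5330439B14Rik, which had 0 counts. Of the 2 other subunits of this channel family, Abcc8 could be tested and was not called at any time, and Kcnj11 had too few counts.

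The effect of surgery alone was asked of the mean of the 5 sham groups against control. No member was called by edgeR or DESeq2, beside 0.02% of all genes. At an unadjusted p under 0.05 there were 2 members, beside 4.77% of all genes. Acta2 gave the larger difference of those 2, a log2 fold change of -0.93 with an edgeR adjusted p of 0.739. The other was Vtn, at -0.36 (edgeR adjusted p = 0.96). For Acta2, the controls held 50.8, 34.9, 45.2 and 37.7 CPM. The 16 shams from 3 h to day 3 held 10.1 to 28.2 CPM, and sham at day 7 held 29.8 to 41.1 CPM. Every control was above every sham before day 7 in Acta2 alone of the 10 members, beside 0.1% of all genes, a split chosen after the levels were seen. MCAO at 3 h, at 14.6 to 21.5 CPM, lay within the range of those shams, and MCAO at 12 h held 4.08 to 16.1 CPM. The leptomeningeal list, whose cells adjoin the large surface arteries, summed to 112.5 to 147.9 CPM in control and 69.4 to 143.7 CPM over the 5 sham groups. The median sum was 132.7 CPM in control. In sham it was 96.9 CPM at 3 h, 81.65 at 12 h, 127.4 at 24 h, 94.0 at day 3 and 106.5 at day 7. The part of this list in the Acta2 difference was not tested.

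Against control, MCAO at 24 h, day 3 and day 7 gave no called member, beside 0.28%, 3.1% and 1.5% of all genes. At an unadjusted p under 0.05 there were 3, 6 and 2 members, beside 2199 of the 19970 genes at 24 h and 19.8% and 14.9% of them at day 3 and day 7, and DESeq2 called 1 at each time: Vtn at 24 h, Tagln at day 3 and Cspg4 at day 7. With edgeR, Tagln at day 3 had a log2 fold change of 1.92 (adjusted p = 0.0188), and Cspg4 had 1.04 at day 3 (adjusted p = 0.0422) and 1.19 at day 7 (adjusted p = 0.0269), which was 0.77 (adjusted p = 0.299) without MCAO replicate C. Those comparisons share the 4 control libraries. The MCAO effect over sham did not differ between 24 h and day 3 by a call for any member, beside 0.01% of all genes, nor between day 3 and day 7, beside 0.0%. In each of those tests 3 members had an unadjusted p under 0.05, beside 8.82% and 16.2% of all genes, and DESeq2 called none of them. For Pdgfrb the effect at day 7 minus that at day 3 was 1.05 on the log2 scale (adjusted p = 0.277), and 0.56 (adjusted p = 0.535) without MCAO replicate C at day 7.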

How the data were processed

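RNA of 48 libraries was sequenced from 3′ ends (QuantSeq FWD) with ERCC spike-ins. The authors used TrimmomaticSE for trimming, SortMeRNA against mitochondrial and ribosomal sequence, STAR 2.5.2b for alignment to GRCm38, and htseq-count (union mode, Gencode vM8) for counting. The deposited values used are raw counts per gene; the authors' matrix of normalized values was not used. Symbols and coordinates came from Gencode vM21. Rows naming no gene (21.6 to 31.3% of alignments without a feature, 24.5 to 38.0% not unique) and spike-ins stayed out. Genes with more than 10 counts in total entered one edgeR 4.0.16 quasi-likelihood fit of 11 groups (R 4.3.3; Benjamini-Hochberg adjustment over 19970 genes). Called meant adjusted p under 0.01 and absolute log2 fold change over 0.58. Data were simulated for MCAO against sham at day 3 with 19633 genes. Of genes changed by 1 on the log2 scale 55% were called, of those changed by 1.5 it was 75%, and 0 unchanged ones were called. The changed genes all had a mean of at least 5 CPM. No group mean of Des or Kcnj8 reached that level. Alternatives were DESeq2 1.42.0, its size factors, spike-in scaling, other filters, only the groups compared, a replicate block and leaving out each library. From each other list, up to 4 called genes with the largest change were named, and the 5 genes nearest to Rgs5 and Acta2. Members and lists were chosen with earlier results of these data known.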

Additional observations from a re-analysis of the deposited data

Results flagged for a closer look

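A library far from the others of its group was looked for in 110 groups of 4 or 5 libraries (10 genes in 11 groups), where chance alone marks about 1 group in 20, and 4 were found. Pdgfrb in MCAO at day 7 was 58.3 CPM in replicate C, with the others at 13.9 to 26.4. Cspg4 in the same library was 57.1 CPM, with the others at 16.9 to 25.4. Cspg4 in MCAO at 3 h was 21.4 CPM in replicate E, with the others at 10.2 to 12.8. Cspg4 in MCAO at 12 h was 20 CPM in replicate D, with the others at 5.82 to 8.34. Replicate C at day 7 also held the highest summed fibroblast level, 7445 CPM. The causes were not tested.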

How the results depend on the processing

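Every log2 fold change of a single gene kept its direction under every alternative. The number of members called changed as follows. At day 3 against sham it was 0 with spike-in scaling, with only the groups compared and with the replicate block, and 0 to 1 without each library. At day 7 against sham it was 0 with only the groups compared, 2 with DESeq2 and with no filter, and 0 to 2 without each library. Against control it was 1 at 24 h with DESeq2 and with filterByExpr (0 to 1 without each library), 1 at day 3 with DESeq2 and with no filter (0 to 1 without each library), and 1 at day 7 with DESeq2.

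Over the single-gene values followed, a call was lost in 32 values and gained in 11 under these settings (394 kept their side). Without a library, it was lost in 77 and gained in 4 (561 kept theirs). Of the 26 calls named by rule for listed genes other than members, 10 held without each library: Flna, Tgfb1, Tgfbr2, Col3a1, Col1a1, Col1a2, Pecam1, Gpr17, Cx3cr1 and Aqp4. The other 16 were lost without at least 1. At 12 h, Slco1a4 was lost without MCAO C or E or sham A, B or C, and Aldh1a2 without MCAO C or E or any sham. Itm2a, named beside them, was lost without MCAO B, C, D or E or any sham, and Pdgfb at day 7 passed without sham C. At day 3, Mcam was lost without sham C or D, Notch3 without MCAO C, D or E or sham C or D, Cald1 without MCAO E, Eng without MCAO C or E or sham B, C or D, Hbegf without sham B, Cdh5 without MCAO E or sham A, B or C, Esam without MCAO C or E or sham A, B or C, and Snap25 without MCAO C, D or E or sham A or B. At day 7, Rgs4 was lost without MCAO C or E or sham A or D, Dcn without MCAO C or sham D, Lhfpl3 without sham D, Pdgfra without MCAO C or D or sham B or D, Vcan without MCAO C or any sham, and Acta1 without MCAO B, C or E or sham A, C or D.

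Genes called over the whole table moved more, and the cause was not tested. With DESeq2 they were 58 at 3 h, 179 at 12 h, 44 at 24 h and 1096 at day 7 against sham, 120 at 24 h and 463 at day 7 against control, and 5 and 57 for the differences of the effect between 24 h and day 3 and between day 3 and day 7. With no filter they were, in that order, 58, 171 and 55 at 3 h, 12 h and 24 h, 103 and 461 against control, 7 for sham against control, and 6 and 37 for those differences. With only the groups compared they were 88, 29, 112 and 530 at 3 h, 12 h, 24 h and day 3 against sham, 197 and 401 at 24 h and day 3 against control, and 1 for day 7 minus day 3. Spike-in scaling gave 14 at 3 h, 39 at 24 h, 7 for sham against control and 1 for day 7 minus day 3, and moved the median of all genes by -0.36 at most, for the effect at day 3 minus that at 24 h. DESeq2 size factors gave 3 for day 7 minus day 3. Without each library in turn, genes called were 5 to 20, 21 to 102, 6 to 21, 441 to 1353 and 241 to 676 against sham by time, 32 to 51, 364 to 1075 and 82 to 318 against control, 1 to 5 for sham against control, and 2 to 11 and 0 to 32 for the differences.

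Replicate letters showed no clear pairing of the samples. Of 20 same-letter correlations of deviations, 5 exceeded 0.1, the highest 0.14, and 6 of 20 libraries were nearest to their own letter. The check had no reference value for paired libraries, so it cannot settle whether the letters pair samples. The replicate block gave 53 genes called at 12 h, against 82 in the main fit. Tagln at day 3 had a log2 fold change of 1.67 with it (edgeR adjusted p = 0.0308) and was not called.

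Depth limits Des, Kcnj8 and Tagln, at 163, 281 and 541 counts over 48 libraries. With spike-in scaling, members without overlap were 0 at 3 h, 1 at 12 h and 1 at day 7, an alternative chosen after seeing the data.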
